A study of Mus musculus with 2 samples.

Results

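The 10 tubulin isotypes described here are the 4 alpha genes Tuba1a, Tuba1b, Tuba1c and Tuba4a and the 6 beta genes Tubb2a, Tubb2b, Tubb3, Tubb4b, Tubb5 and Tubb6. They were taken by Ensembl identifier from the gene tables of both libraries, where all 10 were found among 43346 mouse genes; the rule itself is a list of genes and uses no measured value, but it was written with earlier results of these data known. Total RNA had been sequenced from kidneys of B6NCrl mouse embryos, an inbred strain for which the labels give no altered allele, at 16.5 days of embryonic development. The only group had 2 biological replicates, each a pool of healthy embryos of both sexes; replicate 2 was a pool of 41 embryos, and for replicate 1 the labels do not state how many. The labels name no treatment, genotype or second tissue, so isotypes were compared with each other within the kidney and between the 2 pools.

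Microtubules are hollow polymers of dimers of 1 alpha and 1 beta tubulin, and they form the mitotic spindle, the core of cilia and the tracks of intracellular transport. The isotypes are encoded by separate genes whose products differ most in their acidic tails, where enzymes add or remove glutamate, glycine and tyrosine. Tuba1b, Tuba1c, Tubb5, Tubb4b and Tubb6 are known as isotypes of many cell types, and Tubb4b also as a beta tubulin of ciliary axonemes. Tuba1a, Tubb2a, Tubb2b and Tubb3 are known as rich in developing neurons, and Tuba4a is best known from differentiated cells. In the embryonic kidney, dividing progenitors, forming epithelia with primary cilia, stroma, vessels and a few nerve fibres contribute microtubules. Fewer cells of a type and less RNA per cell cannot be told apart in such bulk samples.

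The coding sequences show where the isotypes differ and where reads of 1 gene could be assigned to another. The last 60 coding bases before the stop codon are shown for 6 isotypes, 5′ to 3′ in the coding direction, because they encode the tails by which isotypes are distinguished. Capitals mark glutamate codons, GAA or GAG, the kind of residue to which polyglutamate side chains are attached. They come from GENCODE M21 transcripts on GRCm38.
Tuba4a (chr1:75215625-75215684, minus strand): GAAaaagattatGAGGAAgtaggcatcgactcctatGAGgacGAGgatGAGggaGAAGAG
Tubb5 (chr17:35834985-35835044, minus strand): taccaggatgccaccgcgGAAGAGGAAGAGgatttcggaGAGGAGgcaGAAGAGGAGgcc
Tubb4b (chr2:25222311-25222370, minus strand): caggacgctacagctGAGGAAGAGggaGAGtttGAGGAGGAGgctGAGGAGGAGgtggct
Tubb2a (chr13:34074471-34074530, minus strand): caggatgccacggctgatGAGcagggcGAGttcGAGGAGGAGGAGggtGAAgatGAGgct
Tubb2b (chr13:34127474-34127533, minus strand): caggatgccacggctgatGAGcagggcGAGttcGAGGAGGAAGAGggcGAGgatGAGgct
Tubb3 (chr8:123421620-123421679, plus strand): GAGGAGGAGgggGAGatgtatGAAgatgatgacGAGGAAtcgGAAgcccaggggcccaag

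Of these last 20 codons, 8 encode glutamate in Tuba4a, and with aspartate codons the acidic count is 12. All 6 beta isotypes, Tubb6 included, have 11 acidic codons there, with 10 glutamate codons in Tubb4b, 9 in Tubb5 and 8 in the other four. The last codon of Tuba4a is GAG, so its tail is encoded without the terminal tyrosine that the tyrosination cycle removes and restores. The first 12 coding bases are shown for 1 isotype of each kind because TTC5, the factor that starts decay of tubulin mRNAs when free tubulin is abundant, reads the nascent chain there; capitals mark codons 2 to 4.
Tuba4a start: atgCGCGAGTGC
Tubb5 start: atgAGGGAAATC
The fourth codon was TGC in all 4 alpha isotypes and ATC in the 5 beta isotypes whose start was read.

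Tuba1a and Tuba1b were 98.3% identical over their coding sequences, and Tubb2a and Tubb2b 96.5%. The 6 alpha pairs ranged from 84.8% to 98.3%, the 15 beta pairs from 80.2% to 96.5%, and the 24 alpha with beta pairs from 53.9% to 56.3%. Windows of 100 nt that also occur in another gene's transcript made up 73.0% of the leading transcript of Tuba1b, 65.8% of that of Tuba1a and 53.4% of that of Tuba1c. The shares were 36.9% for Tubb2a, 30.6% for Tubb4b and 27.7% for Tubb2b, and 0% for Tubb3, Tubb5 and Tubb6. The windows were searched in GENCODE M21, whereas the deposited values used annotation M4. Partners such as Gm49450 and AC157548.1 (530 and 536 windows of Tuba1b) had no quantified entry under these names, so the shares can overstate the ambiguity. Tuba1a, Tuba1b and Tuba1c also shared windows with each other, as did Tubb2a and Tubb2b. The split of reads among Tuba1a, Tuba1b and Tuba1c, and between Tubb2a and Tubb2b, is therefore less certain than the levels of Tubb3, Tubb5 and Tubb6. The deposited posterior SD of the count, the uncertainty from dividing shared reads, was 0 for these 3 genes and reached 1.69% of the count for Tubb2b and 1.30% for Tuba1c.

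The libraries of replicates 1 and 2 held 35255968 and 38706236 expected counts, and mouse genes received 34261328 and 37900132 of them. Levels are in TPM, a unit scaled to transcript length and to the depth of the library, so that isotypes can be compared with each other, and are given as mean ± SD of both libraries (n = 2). All 10 isotypes reached 1 TPM in both libraries, as did 62.2% of 21474 protein-coding genes. With 2 libraries, an exact permutation test cannot give a two-sided p under 0.5, so no p-values are given, and neighbours in the order of levels are called apart only where the ranges of both libraries do not overlap. Of the listed epithelial markers, 10 of 10 reached 1 TPM in both libraries, led by Krt8 (248 ± 13.3 TPM) and the kidney cadherin Cdh16 (231 ± 20.5 TPM), with Grhl2 lowest at 7.17 ± 0.474 TPM.

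Tuba1b, an alpha tubulin of nearly all dividing cells (ENSMUSG00000023004.8, GRCm38 chr15:98931425-98934565), was the highest isotype, at 1540 TPM in replicate 1 and 1517 TPM in replicate 2 (1529 ± 16.3). It ranked 35 among 21474 protein-coding genes by mean TPM. Tuba1a, the alpha tubulin whose variants are known to disturb migration of cortical neurons (ENSMUSG00000072235.5, chr15:98949837-98953703), followed at 881 and 883 TPM (882 ± 1.59), rank 92. Tuba1b exceeded Tuba1a 1.75-fold in replicate 1 and 1.72-fold in replicate 2. Both libraries of Tuba1b lay above both of Tuba1a, and the 2 libraries of Tuba1a were nearly equal.

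Tuba1c, another widely expressed alpha gene (ENSMUSG00000043091.8, chr15:99029891-99038110), stood at 165.7 and 165.9 TPM (166 ± 0.127), 9.29 and 9.14 times below Tuba1b. The 3 genes lie within 1 cluster on chromosome 15, with gaps of 15271 nt between Tuba1b and Tuba1a and 76187 nt between Tuba1a and Tuba1c. Tuba4a (ENSMUSG00000026202.9, chr1:75214228-75219865) was the lowest alpha isotype at 78.3 and 84.7 TPM (81.5 ± 4.53). Its exons overlap those of Stk16, a kinase gene on the opposite strand, over 1379 nt or 37.3% of the exonic bases, and Stk16 was at 125 and 142 TPM. Whether the libraries keep strand was not given in the sources used here. Without strand, reads of both genes in this stretch cannot be told apart.

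Tubb5, the beta tubulin of most proliferating cells (ENSMUSG00000001525.10, chr17:35833921-35838306), led the beta isotypes at 806 and 760 TPM (783 ± 32.8), rank 117. Tubb4b, the axonemal isotype (ENSMUSG00000036752.4, chr2:25222160-25224702), was second at 514 and 563 TPM (538 ± 34.9), rank 218. The ratio of Tubb5 to Tubb4b was 1.57 in replicate 1 and 1.35 in replicate 2. Tubb5 lay above Tubb4b in both libraries. In TPM, Tubb5 was lower and Tubb4b higher in replicate 2, both by less than 1.5-fold; scaled to the spike-ins, both log2 ratios were above 0 (0.34 and 0.56). Tubb4b shares 121 exonic nt with Fam166a on the opposite strand, which was at 0.09 and 0.32 TPM.

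Tubb6, a divergent beta isotype (ENSMUSG00000001473.6, chr18:67390717-67402749), was at 150 and 173 TPM (161 ± 16.03). Its range enclosed both values of Tuba1c, and this was the only neighbouring pair of the order whose library ranges overlapped. Tubb2a (ENSMUSG00000058672.6, chr13:34074274-34078007) was at 117 and 126 TPM (122 ± 6.47). Tubb2b (ENSMUSG00000045136.5, chr13:34126748-34130466), its neighbour 48740 nt away and known for its role in cortical development, was lower at 36.7 and 38.1 TPM (37.4 ± 0.955). Tubb2a exceeded Tubb2b 3.19-fold and 3.32-fold.

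Tubb3, the beta tubulin used as a marker of neurons (ENSMUSG00000062380.3, chr8:123411424-123422015), was the lowest isotype at 9.18 and 3.99 TPM (6.59 ± 3.67), from 373 and 176 counts. Its rank was 10276 of 21474 protein-coding genes. Tuba1a, from the same neuron-rich group, exceeded it 95.9-fold in replicate 1 and 221-fold in replicate 2, and Tubb2b exceeded it 4.00-fold and 9.54-fold. The neuron-rich isotypes thus did not share 1 level: they spanned the second and the last place of the order.

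**Figure D1:**
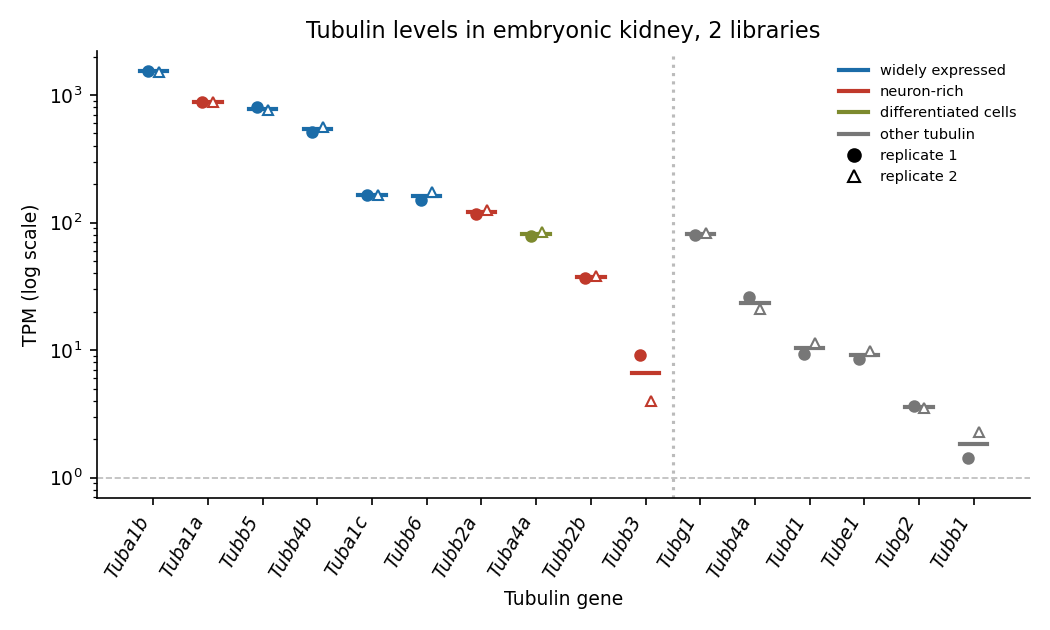
Level in TPM on a log axis (vertical) of the 10 isotypes in order of mean level and, right of the dotted line, of 6 other tubulin genes. Circles are replicate 1, triangles replicate 2, short bars their mean, colours the isotype groups, and the dashed line 1 TPM. Tuba1b lies highest at 1529 TPM, Tubb3 lowest of the isotypes at 6.59 TPM, and the symbols of Tubb3 are the farthest apart among the isotypes.

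The deposited TPM was above the deposited upper bound for 4 isotypes, Tuba1b, Tuba1a, Tubb5 and Tubb4b, in both libraries. These bounds belong to the posterior mean TPM, which the authors deposited beside the TPM and which was lower (for Tuba1a 859 in replicate 1, with bounds of 848 and 870). For Tubb3 the bounds were 8.07 and 9.88 TPM in replicate 1 and 3.35 and 4.50 TPM in replicate 2, so that the 2 libraries did not overlap. Such bounds cover counting and assignment of reads, not differences between animals.

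Summed over all isotypes, the level was 4298 TPM in replicate 1 and 4315 TPM in replicate 2. The 4 alpha genes summed to 2665 and 2651 TPM and the 6 beta genes to 1633 and 1664 TPM. Alpha exceeded beta 1.63-fold and 1.59-fold (1.61 ± 0.0275), although the 2 proteins are known to assemble in equal number. This is a ratio of RNA, and it says nothing of protein amounts.

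Within the alpha pool, Tuba1b held 57.5 ± 0.396% and Tuba1a 33.2 ± 0.185%, so that both together left 6.24 ± 0.0284% for Tuba1c and 3.06 ± 0.182% for Tuba4a. Within the beta pool, Tubb5 held 47.5 ± 2.62% and Tubb4b 32.7 ± 1.68%. Tubb6 followed with 9.77 ± 0.843%, Tubb2a with 7.38 ± 0.295% and Tubb2b with 2.27 ± 0.0278%. The share of Tubb3 was 0.562% in replicate 1 and 0.240% in replicate 2. In each pool the 2 leading genes kept their order in both libraries.

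**Figure D2:**
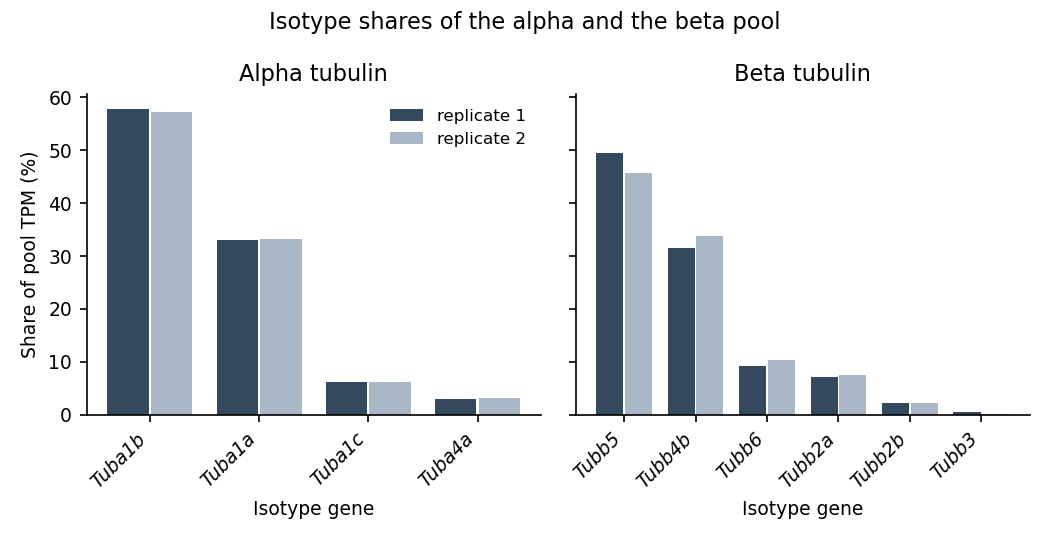
Share of the summed TPM of the alpha pool (left) and the beta pool (right) held by each isotype, in percent, with dark bars for replicate 1 and light bars for replicate 2. Tuba1b and Tuba1a fill most of the alpha pool (57.5% and 33.2%), Tubb5 and Tubb4b most of the beta pool (47.5% and 32.7%).

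The 5 widely expressed isotypes took 73.8 ± 0.157% of the summed level of all 10, and the 4 neuron-rich isotypes 24.3 ± 0.0572%. Tuba4a made up the remaining 1.89 ± 0.0999%. The neuron-rich part was uneven between the pools: Tuba1a alone was 33.2% of alpha, while Tubb2a, Tubb2b and Tubb3 together were 10.0 ± 0.0944% of beta. With Tuba1a at 882 of 1047 TPM, the neuron-rich sum followed this 1 gene.

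The marker lists of cell types stood at very different levels beside the isotypes. All 9 markers of dividing cells were detected, with a median of 180 ± 1.82 TPM over the list, led by the mitotic kinase Cdk1 (411 ± 45.3 TPM) and Birc5 (241 ± 3.98 TPM), with Mki67 lowest at 27.9 ± 1.61 TPM. The median of the 10 epithelial markers was 137 ± 4.999 TPM. Of 11 neuronal markers 7 were detected, with a median of 3.37 ± 1.32 TPM, against 62.2% of all protein-coding genes detected. Uchl1, which is not restricted to neurons, was their highest at 47.2 ± 2.71 TPM, followed by the growth cone protein Gap43 at 16.6 ± 3.27 TPM, and Elavl3 was the lowest at 0.19 and 0.07 TPM. The level of Tubb3 lay within the range of the neuronal markers, and that of Tuba1a lay above every listed marker of dividing, epithelial and neuronal cells. Which cells held these transcripts was not tested.

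Of 8 listed markers of multiciliated cells, whose axonemes are known to use Tubb4b, 7 were detected, against 62.2% of all protein-coding genes. The median over the list was 2.22 ± 0.163 TPM, and 2 of 8 reached 5 TPM in both libraries. Whether such cells were present was not tested. Rsph9 (13.1 ± 1.06 TPM) and Tekt1 (5.24 ± 0.290 TPM) were highest, and the axonemal dynein gene Dnah5 was lowest at 0.04 and 0.06 TPM. Tubb4b, at 538 TPM, stood far above every gene of that list.

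Only in Tuba4a was the level divided among several transcripts. Of the 10 isotypes, 5 had 1 transcript in the tables and 4 had a leading transcript of over 98% of the gene in both libraries. The leading transcript was the same in both libraries for 10 of 10, which was fixed in advance for the 5 with 1 transcript. Tuba4a had 8 transcript models, of which 2 had 0 counts in both libraries. Its leading model, of 1205 nt and without a complete coding sequence in GENCODE M21, held 47.8% in replicate 1 and 43.5% in replicate 2. The second, of 2083 nt and also without a complete coding sequence, held 29.2% and 34.1%, and the starts of both lie 1190 nt apart. This order is that of TPM, which is per length: by expected counts the longer model was higher, with 1042 against 950 in replicate 1 and 1426 against 1015 in replicate 2. The model of 2840 nt with a complete coding sequence, from which the tail sequence was read, held 7.97% and 6.82%. Windows shared with Stk16 made up 46.7% of that model, and incomplete models can receive reads that belong to a complete one.

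**Figure D3:**
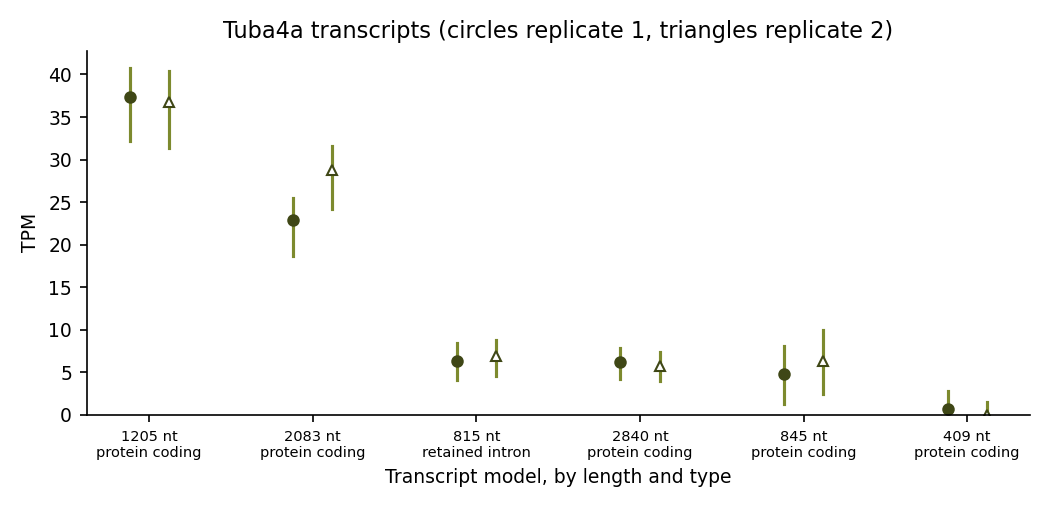
TPM (vertical) of the 6 Tuba4a transcript models with counts, labelled by length in nt and type. Circles are replicate 1, triangles replicate 2, and lines run from the deposited lower to the upper bound of the posterior mean TPM. The models of 1205 nt and 2083 nt are highest, and the complete model of 2840 nt stays below 10 TPM.

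Between the 2 pools, Tubb3 alone among the isotypes differed by more than 1.5-fold. The ratio of replicate 2 to replicate 1 was computed from expected counts of the 15362 mouse genes whose mean reached 1 CPM, a count scaled to the depth of the library but not to length; all 10 isotypes passed this filter. With 1 library a side, a gene was called different past 1.5-fold, with no test. Tubb3 had 10.8 CPM in replicate 1 and 4.69 CPM in replicate 2, a log2 ratio of -1.19 or a 2.29-fold lower value in replicate 2. This was 1 of 10 isotypes past 1.5-fold, against a background of 5.81% of all genes in either direction and 3.76% lower in replicate 2. Tubb3 lay farther from 0 than 98.3% of all genes.

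The log2 ratios of the other 9 isotypes ran from -0.08 for Tubb5 to 0.20 for Tubb6. Tuba1a was at 0.00, Tuba1c at 0.00, Tuba1b at -0.02 and Tubb2b at 0.05. Tubb2a was at 0.11, Tubb4b at 0.13 and Tuba4a at 0.14. The median over the 10 isotypes was 0.03 and that over all genes 0.01. Scaled to the spike-ins, which made up 2.82% and 2.08% of the counts of replicates 1 and 2, the median of all genes shifted to 0.43. On that scale Tubb3 was at -0.77 and Tubb6, at 0.63, passed 1.5-fold as well. Lower values made up 64.6% of all calls with the main scaling and 9.88% with the spike-ins. With the spike-ins, 2455 of 15362 genes passed 1.5-fold higher in replicate 2 and 269 passed lower.

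**Figure D4:**
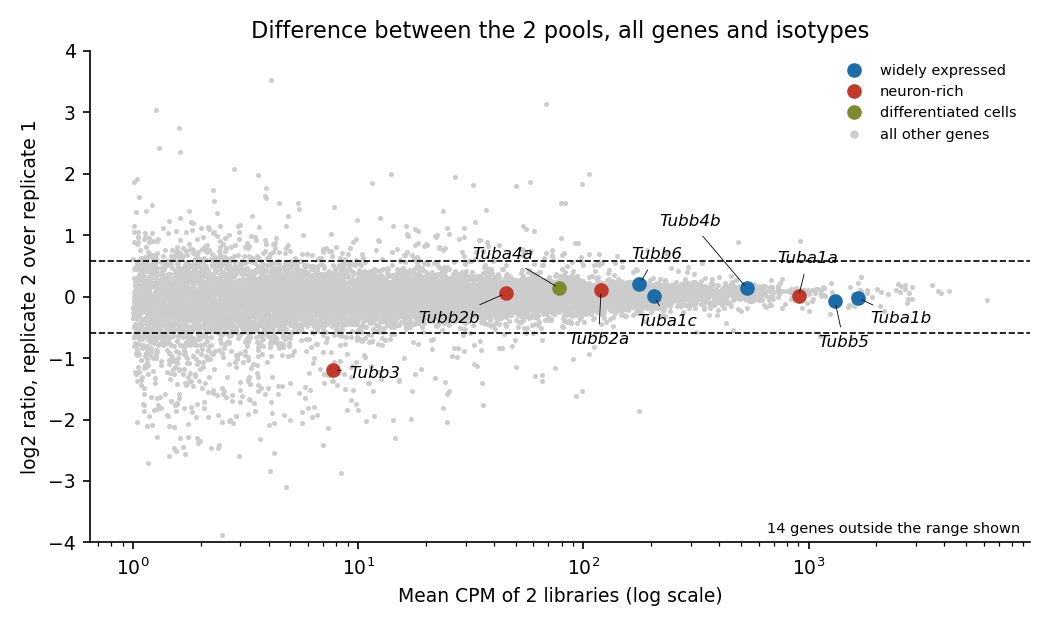
Log2 ratio of replicate 2 over replicate 1 (vertical) against the mean CPM of both libraries on a log axis for 15362 genes (grey) and the 10 isotypes (coloured by group); dashed lines mark 1.5-fold and 14 genes fall outside the range drawn. Tubb3 lies below the lower line at -1.19, and the other 9 isotypes lie between -0.08 and 0.20.

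Markers of other cell types differed between the pools as well. Of the 6 chromaffin cell markers, genes of the catecholamine-producing adrenal medulla, 4 were past 1.5-fold lower in replicate 2, against 3.76% of all genes. These were Th (11.5 and 5.49 TPM), Dbh (5.81 and 2.53 TPM), Chga (11.2 and 4.50 TPM) and Chgb (7.95 and 4.10 TPM). Slc18a1 was at 14.3 and 13.6 TPM and Pnmt at 2.27 and 2.09 TPM. The list median was -1.003, its summed level 53.0 and 32.3 TPM, and no marker was at 0. Scaled to the spike-ins, 3 of 6 remained lower past 1.5-fold (Th, Dbh and Chga), against 269 of 15362 genes.

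Of 9 neuronal markers tested, 3 were past 1.5-fold lower in replicate 2, against 3.76% of all genes. These were Snap25 (2.29 and 1.03 TPM), Nefm (4.57 and 2.44 TPM) and Prph (4.30 and 2.76 TPM). Rbfox3 (0.51 and 0.86 TPM, from 25 and 58 counts) was past 1.5-fold higher, against 2.06% of all genes. At 0.723 and 1.54 CPM, it passed the filter of 1 CPM only through replicate 2, where it was higher. Its call is therefore tied to the filter. The list median was -0.50 and the summed level of all 11 was 101 and 82.0 TPM, of which Uchl1 made up 49.1 and 45.2 TPM. Scaled to library size, Nefl passed as well (4 of 9 lower); scaled to the spike-ins, Snap25 alone passed in the lower direction, and Rbfox3 in the higher. Among 3 glial markers tested, Fabp7 was past 1.5-fold lower in replicate 2 (6.97 and 4.44 TPM), and with the spike-ins none of the 3 passed. The part of neuronal, chromaffin and glial RNA in the Tubb3 value was not tested.

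The lists of dividing cells (0 of 9, median -0.04), kidney epithelium (0 of 10, median 0.08) and neuronal microtubule-associated proteins (0 of 7, median -0.12) held no gene past 1.5-fold with the main scaling. The background was 5.81% of all genes in either direction, a share at which lists this short can hold none. With the spike-ins Cdh16 passed, higher in replicate 2. Among the neuronal microtubule-associated proteins Map1b, a protein of growing axons, was highest at 14.7 ± 1.79 TPM. Dclk1 followed at 10.95 ± 0.481 TPM, and Map6 was lowest at 1.38 ± 0.0636 TPM. Of 5 skeletal muscle genes tested, 2 were past 1.5-fold higher in replicate 2, against 2.06% of all genes. These were Acta1 at 48.3 and 139 TPM and Ckm at 11.6 and 17.6 TPM. Scaled to library size, Acta1 alone passed (1 of 5). With the spike-ins 4 of 5 did (Acta1, Ckm, Myog and Tnnt3), but on that scale 2455 of 15362 genes passed higher in replicate 2. The summed level of all 6 muscle genes was 96.6 and 196 TPM, of which Acta1 made up 48.3 and 139 TPM. The sarcomere gene Mylpf was slightly lower in replicate 2, at 22.4 and 21.2 TPM, and Myod1 was lowest at 0.63 ± 0.0849 TPM.

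**Figure D5:**
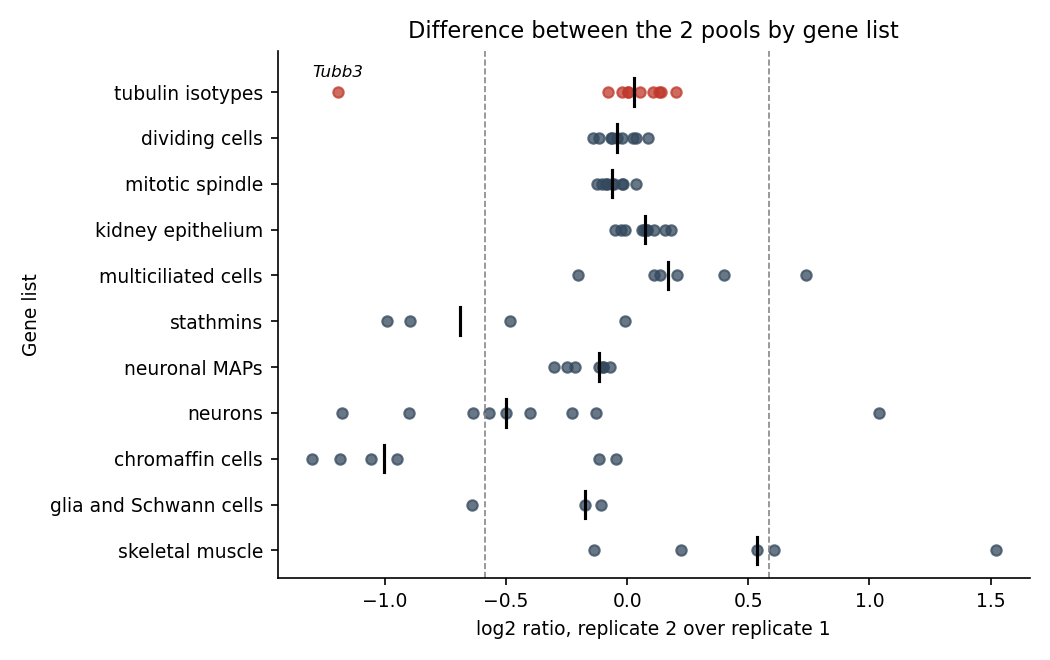
Log2 ratio of replicate 2 over replicate 1 (horizontal) for the isotypes (red) and the genes of 10 lists (dark), with 1 point per gene, a black bar at the list median and dashed lines at 1.5-fold. Tubb3 lies at -1.19, among the values of chromaffin markers and just below the lowest neuronal marker (Snap25, -1.18). The lists of dividing cells and kidney epithelium lie close to 0.

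Stathmins, which hold tubulin dimers back from polymerisation, ranged widely in level. Stmn1, the form of dividing cells, was at 1352 and 1340 TPM with a log2 ratio of -0.01. Stmn2, a neuronal form, was at 14.1 and 9.25 TPM. Stmn3 (6.30 and 3.13 TPM, log2 ratio -0.99) and Stmn4 (2.79 and 1.86 TPM, log2 ratio -0.89) were past 1.5-fold lower in replicate 2. These were 2 of 4 stathmins, against 3.76% of all genes. Their counts were low, at 150 and 81 for Stmn3 and 77 and 44 for Stmn4. In the ratio of TPM, Stmn2 and Stmn3 passed instead of Stmn3 and Stmn4, and with the spike-ins none did.

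Of the other 6 alpha and beta tubulin genes, only Tubb4a and Tubb1 reached 1 TPM in both libraries, against 62.2% of all protein-coding genes. Tubb4a, known from oligodendrocytes and neurons, was at 26.0 and 21.2 TPM and so above Tubb3, 2.83-fold and 5.30-fold. Tubb1, the beta tubulin of megakaryocytes and platelets, was at 1.43 and 2.27 TPM with a log2 ratio of 0.64, past 1.5-fold higher in replicate 2, a call made for 2.06% of all genes. Platelet markers were led by Pf4 at 30.7 ± 0.389 TPM and Itga2b at 8.72 ± 0.509 TPM. Of these markers 0 of 3 tested passed 1.5-fold, against 5.81% of all genes (1 of 3 with the spike-ins, against 17.7%). Tuba8 was at 0.23 and 0.64 TPM, Tuba3a at 0.15 and 0.55 TPM, Tuba3b at 0 and 0.26 TPM and Tubal3 at 0 and 0.03 TPM.

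Processed pseudogenes near-identical to the alpha isotypes also took reads. Gm14150 was at 8.73 and 5.40 TPM, Gm6682 at 11.1 and 1.5 TPM over an effective length of 198 nt, and Gm17383 at 5.07 and 1.48 TPM. Gm14150 and Gm17383 were past 1.5-fold lower in replicate 2 (log2 ratios -0.68 and -1.71), against 3.76% of all genes. Gm6682 did not pass the filter of 1 CPM. The values of these pseudogenes are small beside the alpha isotypes, but they can rest on reads shared with them.

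Gamma tubulin, which nucleates microtubules, was mainly Tubg1 at 80.4 and 82.5 TPM, 22.0-fold and 23.6-fold above Tubg2 at 3.66 and 3.49 TPM. The centriolar delta and epsilon tubulins Tubd1 (9.32 and 11.5 TPM) and Tube1 (8.54 and 9.78 TPM) were detected as well. All 8 genes of the gamma-tubulin ring complex were detected, against 62.2% of all protein-coding genes. They ran from Mzt1 at 54.8 ± 3.61 TPM and Tubgcp4 at 51.9 ± 6.36 TPM down to Tubgcp6 at 12.3 ± 1.15 TPM. Between the pools 0 of 8 passed 1.5-fold, against 5.81% of all genes.

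The genes of the folding route of new tubulin were detected throughout, against 62.2% of all protein-coding genes. All 8 subunits of CCT, the chaperonin that folds tubulin and actin, were detected with a median of 369 ± 20.7 TPM, from Cct3 (489 ± 23.1 TPM) and Cct5 (459 ± 18.4 TPM) to Cct2 (190 ± 1.79 TPM). All 6 prefoldin genes, which pass chains on to CCT, were detected with a median of 115 ± 0.308 TPM, from Pfdn5 (311 ± 4.32 TPM) and Vbp1 (135 ± 1.00 TPM) to Pfdn4 (54.0 ± 9.39 TPM). All 7 folding cofactor genes were detected with a median of 48.4 ± 1.54 TPM, led by Tbca (182 ± 2.21 TPM), which holds beta tubulin, and Tbcb (161 ± 18.2 TPM), which acts on alpha tubulin, with Tbcel lowest at 4.29 ± 0.672 TPM. Ttc5 was at 58.1 and 64.2 TPM. None of these genes passed 1.5-fold between the pools with the main scaling, against 5.81% of all genes. With the spike-ins Tbcb and Tbcc did, against 17.7% of all genes.

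Enzymes that modify the tails were detected in part, beside the 62.2% of all protein-coding genes detected. Of 8 glutamylases 5 were detected, led by Ttll1 (23.3 ± 0.276 TPM) and Ttll4 (12.2 ± 3.27 TPM), with Ttll6 lowest at 0 and 0.01 TPM. Of 6 deglutamylases 3 were detected, led by Agbl5 (20.2 ± 0.940 TPM) and Agtpbp1 (10.8 ± 0.559 TPM), with Agbl1 lowest at 0.07 and 0.10 TPM. Of 3 glycylases 2 were detected, Ttll10 (7.27 ± 1.49 TPM) and Ttll3 (3.24 ± 0.488 TPM), and Ttll8 had 0 counts in both libraries. The 4 genes of the tyrosination cycle were detected: Svbp (102 ± 3.98 TPM) and its partner Vash2 (23.3 ± 0.940 TPM) of the detyrosinating enzyme were highest, Vash1 was lowest at 7.22 ± 0.559 TPM, and the ligase Ttl was at 11.1 ± 0.170 TPM. The acetyltransferase Atat1, which modifies alpha tubulin inside the microtubule, was at 76.1 ± 10.1 TPM, and the deacetylases Sirt2 and Hdac6 at 57.6 ± 3.75 and 56.0 ± 1.68 TPM. No gene of these lists passed 1.5-fold between the pools with the main scaling, against 5.81% of all genes. With the spike-ins Agbl2 did, against 17.7% of all genes.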

How the data were processed

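The 10 isotypes, the 26 gene lists (164 genes) and the tests were chosen with earlier results of these data known. Genes named are all tubulins, the 2 highest and the lowest of each list, and list genes past 1.5-fold between the pools. Some genes and sequences that this choice takes are not reported here.

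The authors deposited a gene and a transcript table for each library, on mm10 with annotation M4 per the deposited text notes. Aligner, quantifier and strandedness were not given in the sources used here. The deposited expected counts divide reads shared by genes. In the deposited TPM and FPKM values the authors scaled to length and depth, spike-ins included. The deposited posterior mean TPM, with its lower and upper bounds, and the posterior SD of the count are treated as signal. The deposited percent gives each transcript's part in its gene.

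Names, positions and coding sequences were matched by identifier to GENCODE M21 on GRCm38 with Biopython 1.88; 42462 of 43346 mouse genes matched, and 884 did not. Shared windows of 100 nt were searched in M21 transcripts of all genes. Ratios between the pools came from rounded expected counts with TMM factors of edgeR 4.0.16, run in R 4.3.3, and a prior count of 2 before taking log2. Alternatives used DESeq2 1.42.0 size factors, library size, spike-ins, other units, pools and thresholds. Tables and plots used Python 3.11.15, numpy 2.4.6, pandas 2.3.3 and matplotlib 3.10.9. On data simulated for the comparison of the pools (15362 genes), the 1.5-fold limit was passed by 100% of 100 genes made to differ 3-fold, by 46% of 100 made to differ 1.5-fold and by 0.937% of the 15162 left alone. The simulated spread was set in advance and not estimated from these data, so 0.937% is no rate of false calls here. The changed genes were drawn from those with higher counts. Genes made to differ by exactly the limit fall on either side of it by design.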

Additional observations from a re-analysis of the deposited data

How the results depend on the processing

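With 1 library left out in turn, the summed level of the 10 isotypes ranged from 4298 to 4315 TPM, the share of Tuba1b from 57.2% to 57.8%, that of Tubb5 from 45.7% to 49.4%, the alpha to beta ratio from 1.59 to 1.63, the widely expressed share from 73.7% to 73.9%, the neuron-rich share from 24.3% to 24.4%, and the leading Tuba4a transcript from 43.5% to 47.8%. The summed level was 4206 as posterior mean TPM, 4557 as TPM over mouse genes alone and 2789 as FPKM. From expected counts, which are not per length, the shares of Tuba1b and Tubb5 were 58.3% and 59.8% and the alpha to beta ratio was 1.30. With 10 genes added to the alpha pool, the share of Tuba1b was 57.1%. The added genes were the other alpha tubulins and those pseudogenes with shared windows that had deposited values. Counting Tubb2a as widely expressed gave 76.6% for that group and 21.5% for the neuron-rich one; Tuba4a added to either gave 75.7% and 26.2%. Scaled to the spike-ins, 2 isotypes instead of 1 passed 1.5-fold, with Tubb6 at a log2 ratio of 0.63, and 17.7% of all genes did; without the filter on low counts 22.8% did. Tubb3 was lower in replicate 2 past 1.5-fold under all 5 other scalings and units tried, from -1.22 to -0.77. All 10 isotypes were detected at 0.5 TPM and 9 at 5 TPM; list counts moved by over 1.5 times in 12 of 156 alternatives. Isotype ratios near 0 changed sign without passing 1.5-fold: Tubb5 was at 0.34 and Tuba1b at 0.40 with the spike-ins, and Tuba1a at -0.02 and Tuba1c at -0.03 with library size. Of 346 alternative values, 290 stayed within 1 SD of the main value, within 1.5 times the main count or on the same side of 1.5-fold, 55 moved further and 1, the Tubb6 ratio, newly passed 1.5-fold. Part of the 290 was fixed in advance. With 1 library left out, a level, share or alpha to beta ratio is the value of the other library. That value always lies within 1 SD of the mean of 2 libraries. The isotype count without the filter could not change either, as all 10 isotypes passed the filter. No paired analysis was possible because there is 1 group. With 2 libraries, spread between pools is poorly known, and reads shared by near-identical genes limit the split of alpha isotypes.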

Other observations

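Lists that bear on how microtubules are built and used in the kidney, and that are described nowhere above, were detected in full. Of all protein-coding genes, 62.2% were detected. All 9 mitotic spindle genes were at 1 TPM or more, with a median of 50.4 ± 1.57 TPM; the kinase Aurkb (147 ± 2.60 TPM) and the midzone bundler Prc1 (118 ± 3.89 TPM) were highest and the kinesin Kif18a lowest (17.2 ± 0.728 TPM). All 7 plus-end genes were detected, with Mapre1, which tracks growing ends, at 187 ± 4.26 TPM, Ckap5, a polymerase, at 54.6 ± 2.71 TPM and Clasp2 lowest at 12.7 ± 0.148 TPM. All 6 severing genes were detected, with Fignl1 (55.9 ± 1.499 TPM) and the katanin subunit Katna1 (48.2 ± 1.57 TPM) highest and the spastin gene Spast lowest (7.18 ± 0.170 TPM).

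General and epithelial microtubule-associated proteins were led by Map4 (34.1 ± 3.54 TPM) and Map7d1 (26.5 ± 0.856 TPM), with Map7d3 lowest at 1.28 ± 0.0424 TPM. None of the genes of these 4 lists passed 1.5-fold between the pools with the main scaling, against 5.81% of all genes. Tekt2, a tektin of motile cilia, was at 3.19 and 4.65 TPM and its counts were past 1.5-fold higher in replicate 2 (log2 ratio 0.74). This was 1 of 6 multiciliated markers tested, against 2.06% of all genes. With the spike-ins 3 of 6 passed (Foxj1, Rsph9 and Tekt2), but on that scale 2455 of 15362 genes passed higher in replicate 2. In the ratio of TPM none of the 6 passed. Glial markers were detected in 3 of 6 cases, against 62.2% of all protein-coding genes. They were led by Erbb3 (10.1 ± 0.537 TPM) and Fabp7 (5.71 ± 1.79 TPM), with S100b lowest at 0.44 and 0.38 TPM.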
